A study of Mus musculus with 12 samples.

Results

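Of the 57010 mouse gene IDs counted in these libraries, 37 were taken as type I interferon-stimulated antiviral genes, and all 37 were found by matching their current or older symbols to the IDs (Ddx58, now called Rigi, is one with an older symbol). They were followed in 12 RNA-seq libraries of primary mouse chondrocytes, the cells that make cartilage matrix, in a study of SIRT5, a mitochondrial enzyme that takes malonyl and related acyl groups off lysines. The series holds 4 libraries labelled Control, 4 labelled WT, from cells transfected with a plasmid called wild type and read here as wild-type SIRT5, and 4 labelled SIRT5F101L, from cells transfected with a plasmid for that SIRT5 mutant. All 12 carry the genotype label "Wild type". What the Control cells received, the promoter on the plasmids, the time after transfection, the age, strain and number of the mice, and whether cultures were separate are not given in the sources used here. Transfection and SIRT5 can therefore not be told apart in a comparison with Control, and p-values measure only the spread between libraries, which may be technical.

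Type I interferons are secreted proteins that bind the receptor formed by IFNAR1 and IFNAR2, whose kinases JAK1 and TYK2 phosphorylate STAT proteins. STAT2 and IRF9 take part in a complex that binds the interferon-stimulated response element, a repeat of GAAA spaced by a pair of bases, and turns on genes whose products block viral entry, replication and translation. Many of these genes can also be switched on directly by IRF1, IRF3 or IRF7. The pathway is best known in infected cells and leukocytes, but connective tissue cells such as chondrocytes respond to it too.

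The response element was looked for in RefSeq promoter windows of build GRCm38.p6, from 250 bases before to 50 after each start, which were found for 30 of the 37 genes. The lines that follow give the 250 bases before the start, 5′ to 3′ on the gene's own strand, for the 2 genes that rose most (Rsad2 and Cmpk2, neighbours read away from each other on chromosome 12), for a pair of family neighbours on chromosome 19 that moved in opposite directions (Ifit1 and Ifit3), for Isg15, whose product gave the family a name, and for Bst2, which fell. Capitals mark GAAA, any 2 bases and GAAA again, on either strand (TTTC, any 2 bases and TTTC when it lies on the other).
Rsad2 (chr12:26456453-26456702, minus strand): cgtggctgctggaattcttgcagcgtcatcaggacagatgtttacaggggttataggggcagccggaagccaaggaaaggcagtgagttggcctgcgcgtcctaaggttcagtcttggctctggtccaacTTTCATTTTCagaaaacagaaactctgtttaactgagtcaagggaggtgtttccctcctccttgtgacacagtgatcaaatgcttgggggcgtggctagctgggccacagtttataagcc
Cmpk2 (chr12:26468965-26469214, plus strand): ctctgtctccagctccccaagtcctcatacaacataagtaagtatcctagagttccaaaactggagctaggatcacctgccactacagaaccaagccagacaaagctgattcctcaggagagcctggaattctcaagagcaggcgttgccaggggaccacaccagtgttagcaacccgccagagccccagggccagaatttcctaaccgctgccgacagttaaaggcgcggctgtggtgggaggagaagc
Ifit1 (chr19:34640639-34640888, plus strand): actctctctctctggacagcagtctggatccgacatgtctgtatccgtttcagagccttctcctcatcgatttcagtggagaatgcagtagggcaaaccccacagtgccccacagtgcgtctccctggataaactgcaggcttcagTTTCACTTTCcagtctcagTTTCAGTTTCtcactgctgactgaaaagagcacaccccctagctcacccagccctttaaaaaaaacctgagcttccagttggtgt
Ifit3 (chr19:34583279-34583528, plus strand): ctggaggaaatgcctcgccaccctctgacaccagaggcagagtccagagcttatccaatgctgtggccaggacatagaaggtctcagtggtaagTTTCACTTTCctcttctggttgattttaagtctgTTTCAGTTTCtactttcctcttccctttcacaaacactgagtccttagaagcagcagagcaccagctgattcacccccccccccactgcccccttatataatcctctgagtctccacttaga
Isg15 (chr4:156200819-156201068, minus strand): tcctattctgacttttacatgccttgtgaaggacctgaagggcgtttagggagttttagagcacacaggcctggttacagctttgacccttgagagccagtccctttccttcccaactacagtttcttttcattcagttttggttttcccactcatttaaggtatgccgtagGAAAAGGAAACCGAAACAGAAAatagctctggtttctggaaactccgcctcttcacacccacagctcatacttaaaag
Bst2 (chr8:71537473-71537722, minus strand): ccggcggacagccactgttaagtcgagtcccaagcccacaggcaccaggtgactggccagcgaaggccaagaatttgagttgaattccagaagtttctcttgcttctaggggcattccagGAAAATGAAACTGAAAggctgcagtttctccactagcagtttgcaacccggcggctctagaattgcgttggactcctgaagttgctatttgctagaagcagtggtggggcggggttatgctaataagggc
Rsad2 held 1 match, 120 bases before its start, and Cmpk2 held none. Ifit1 and Ifit3 each held the same pair of matches, TTTCACTTTC and then TTTCAGTTTC, beginning 104 and 85 bases before the start in Ifit1 and 156 and 122 bases before it in Ifit3. Isg15 held 3 overlapping matches, beginning 78, 72 and 66 bases before the start, and Bst2 held 2 overlapping ones, beginning 130 and 124 bases before it. These are letter matches, not measured binding.

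Libraries held 15095357 to 24242139 counts, and the values below are CPM, counts brought to a common library size with edgeR's TMM factors, with standard deviations (SD) over n = 4 libraries. Genes were called at a Benjamini-Hochberg adjusted p under 0.05 by edgeR's quasi-likelihood test over 14253 genes, and 35 of the 37 members passed its filter on low counts. The other two, Ifitm3 and Ifi47, were listed at 0 in all 12 libraries, as were the 2414 X-linked, 1547 Y-linked and 37 mitochondrial IDs of the GENCODE M21 annotation, so that a 0 here cannot be read as absence of the RNA. SIRT5F101L replicate 1 stood apart from its group: on the second principal component it lay at 20.3, beside WT replicates at -1.07 to 20.1, while SIRT5F101L replicates 2 to 4 lay at -23.5 to -17.0. Whether its label is right was not tested. In each library, log2 CPM less the gene's mean over the 12 libraries was regressed on log2 length of the transcript. The slope, which can vary with RNA quality, is thus relative to the average library. It moved with the groups, at -0.0661 to -0.0438 in Control, -0.0361 to 0.0521 in WT and 0.0809 to 0.103 in SIRT5F101L replicates 2 to 4. At -0.0588, SIRT5F101L replicate 1 lay within the Control range and below all WT libraries. The part of this slope in the members' change against Control was not tested beyond a fit with each library's length trend as an offset. RNA counted for the mouse Sirt5 ID did not mark the plasmids, at 0.639, 0.76, 0.479 and 0.874 CPM in Control, 0.444, 0.577, 0.462 and 0.0514 in WT, and 0.481, 1.23, 0.602 and 0.567 in SIRT5F101L (edgeR adjusted p = 0.143 and 0.954 against Control). Reads from a plasmid insert of another sequence may not be counted there. The groups therefore rest on the labels. Of 15 chondrocyte markers, all tested, 13 were called lower and 2, Acan and Hapln1, higher in WT, and 13 lower and 1, Hapln1, higher in SIRT5F101L (28.1% and 30.7% of all genes were lower), and their summed level was 9375 to 11747 CPM in Control, 2858 to 2973 in WT and 2327 to 2570.4 in SIRT5F101L, Col2a1 and Acan being present throughout.

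Most interferon-stimulated genes were higher in both plasmid groups than in Control, and a minority was lower. In WT, 25 of the 35 tested members rose and 7 fell, against 28.7% and 28.1% of all 14253 genes. In SIRT5F101L, 23 rose and 7 fell, against 30% and 30.7% of all genes. These shares are the background for each count of a gene group that follows. The members and the gene lists were chosen with earlier results of these data known, so a count above its share may partly reflect that choice. The median log2 fold change of the 35 was 0.42 in WT and 0.51 in SIRT5F101L, where that of all genes was -0.01 and -0.02. Both comparisons used the same Control libraries. Summed over the members, the level was 3809 to 3936 CPM in Control, 4686 to 4945 in WT and 4765 to 5108 in SIRT5F101L, and neither plasmid group overlapped Control. Without SIRT5F101L replicate 1, 23 members rose and 7 fell in SIRT5F101L (31% and 32.1% of all genes), with a median of 0.53.

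**Figure D1:**
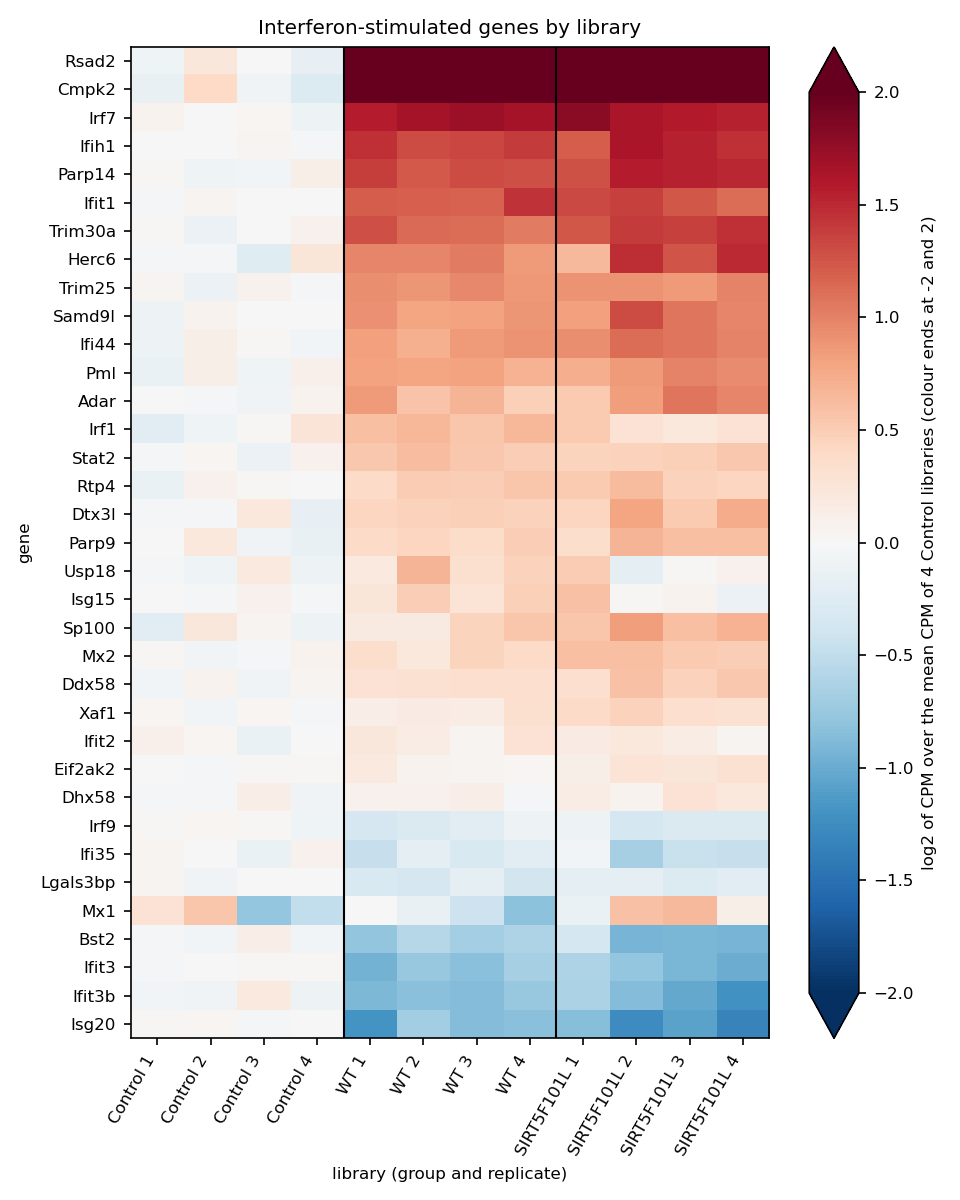
Colours give, for the 35 tested genes (rows, ordered by their change in WT) in each of the 12 libraries (columns), the log2 of CPM over the mean of the 4 Control libraries, with the colour scale ending at -2 and 2. Rsad2 and Cmpk2 run past the scale in all 8 plasmid libraries, and Ifit3, Ifit3b, Bst2 and Isg20 at the bottom are blue in all 8.

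The size of the rise set a few genes apart. In WT, 7 members rose at least 2-fold, against 9.1% of all genes, and none fell that far (7.56% of all genes). In SIRT5F101L, 10 rose at least 2-fold (9.84% of all genes) and 1, Isg20, fell that far (7.67%). No library overlapped between WT and Control for 24 members that lay above and 7 that lay below, as for 26.9% and 26.5% of all genes. In SIRT5F101L the groups were apart from Control for 22 above and 6 below, against 25.7% of all genes each way.

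**Figure D2:**
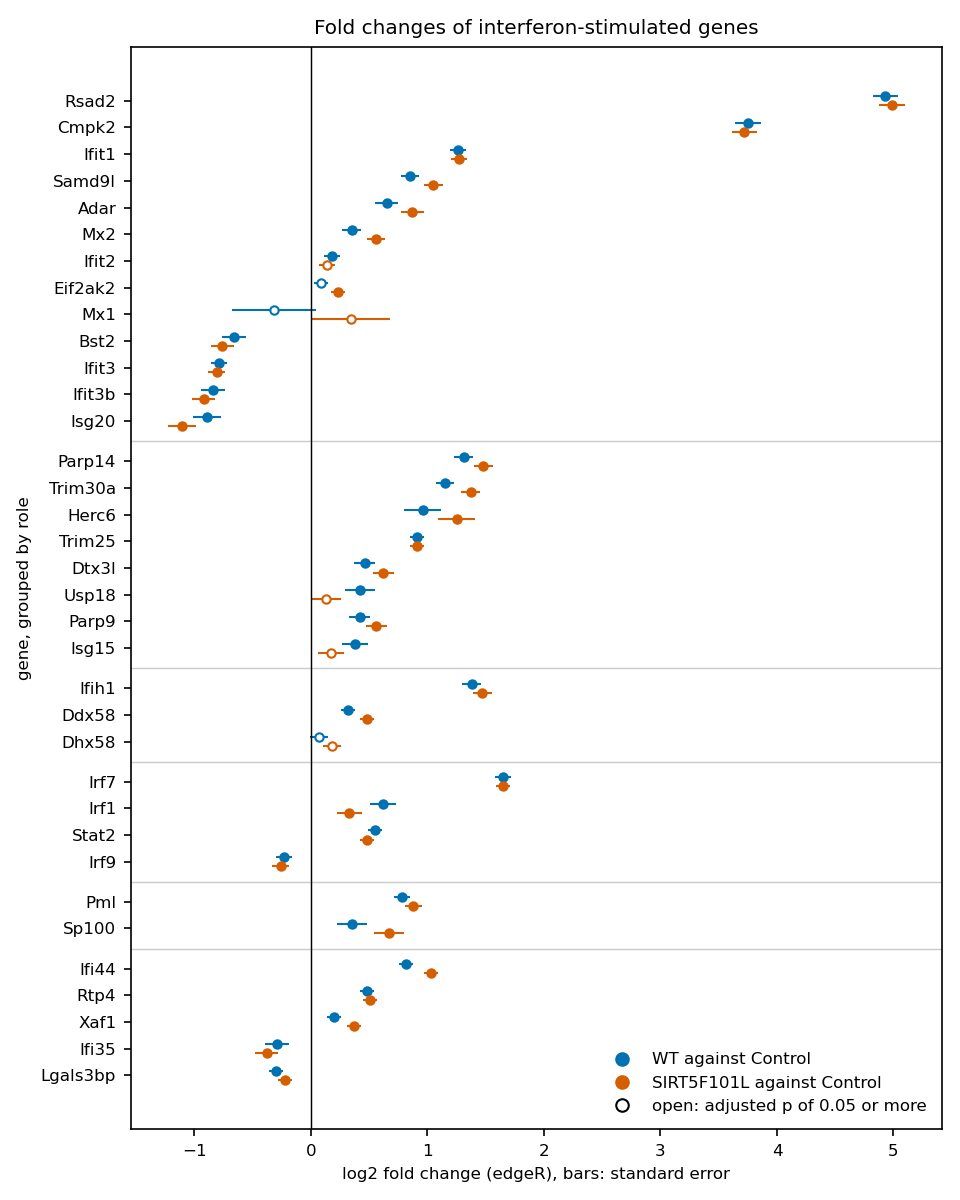
Points give the edgeR log2 fold change against Control (horizontal axis) of each tested gene in WT (blue) and SIRT5F101L (orange), bars its standard error, and grey lines separate the role groups: antiviral effectors, ISG15, ubiquitin and ADP-ribose enzymes, RNA sensors, transcription factors, nuclear body proteins and others. Rsad2 at 4.93 and 4.99 and Cmpk2 at 3.75 and 3.72 lie to the right of all others, and 7 genes in each comparison are filled to the left of 0.

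Among the antiviral effectors, 7 of 13 tested members rose and 4 fell in WT, and likewise in SIRT5F101L, the share that fell being near that of all genes (28.1% in WT and 30.7% in SIRT5F101L). Rsad2, which encodes viperin, an enzyme that makes a chain-terminating nucleotide used against viral RNA synthesis, was at 3.08, 3.8, 3.25 and 2.9 CPM in Control, 105, 97.2, 100.4 and 95.8 in WT, and 85.4, 112, 104 and 114 in SIRT5F101L. Every plasmid library lay far above every Control library, and the plasmid groups overlapped. Rsad2 rose 30.5-fold in WT (log2 4.93 ± 0.11, SE; edgeR adjusted p = 2.83e-18) and 31.8-fold in SIRT5F101L (log2 4.99 ± 0.11; 2.13e-18). Cmpk2, a mitochondrial nucleotide kinase whose gene lies next to Rsad2, was at 2.38, 3.45, 2.5 and 2.19 CPM in Control, 34.6, 36.2, 34.2 and 37.5 in WT, and 33.3, 37.1, 35.6 and 33.9 in SIRT5F101L. Its rise was 13.5-fold in WT (edgeR adjusted p = 2.57e-16) and 13.2-fold in SIRT5F101L (2.81e-16), with the 3 groups arranged as for Rsad2.

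The Ifit members, whose products bind viral RNA, lie close together on chromosome 19 and moved in both directions. Ifit1, shown because it sits beside members that fell, was at 280.4, 299, 285 and 287 CPM in Control, 665, 661, 652 and 780.4 in WT, and 721, 744, 681 and 625 in SIRT5F101L. Its log2 fold change was 1.26 ± 0.07 in WT (edgeR adjusted p = 3.56e-12) and 1.27 ± 0.07 in SIRT5F101L (3.08e-12), with no overlap with Control. Ifit2 was called in WT, at 0.18 (edgeR adjusted p = 0.0325), with 0.14 in SIRT5F101L (0.0829). That call was lost without Control replicate 3 or 4 or WT replicate 1 or 4 (edgeR adjusted p = 0.0663 to 0.124), with upper-quartile scaling (0.117) and with no filter on low counts (0.0706). Ifit3 lay the other way, at 295, 302, 309.7 and 307 CPM in Control, 158, 179.5, 171 and 191 in WT, and 199, 178, 161 and 153 in SIRT5F101L, so that all plasmid libraries were below all Control libraries. It fell by a log2 of 0.79 in WT (edgeR adjusted p = 1.75e-08) and by 0.81 in SIRT5F101L (1.17e-08). Ifit3b, at 66.2, 65.7, 78.7 and 63.9 CPM in Control, 36.9, 38.6, 37.5 and 40.5 in WT, and 44.4, 37.4, 33.9 and 29.7 in SIRT5F101L, fell by 0.84 (edgeR adjusted p = 3.92e-07) and by 0.92 (1.07e-07). At least 95% identical sequence covered 97.4% of the Ifit3 transcript and 84.9% of the Ifit3b transcript, so how reads were split between them is uncertain. Their sum does not depend on that split, but it would miss any shared reads that were counted for neither gene. It was 361 to 388 CPM in Control, 195 to 232 in WT and 183 to 243 in SIRT5F101L.

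Other effectors fell as well. Isg20, a nuclease that degrades single-stranded RNA, was at 18.8, 19, 18 and 18.4 CPM in Control, 8.14, 11.4, 10.2 and 10.4 in WT, and 10.3, 7.73, 8.86 and 7.37 in SIRT5F101L. Control libraries stood above all others, and Isg20 fell by a log2 of 0.89 in WT (SE 0.12; edgeR adjusted p = 1.64e-06) and by 1.11 in SIRT5F101L (8.15e-08). Bst2, or tetherin, which holds budding virus at the cell surface, was at 601, 588, 673 and 590.4 CPM in Control, 356, 414, 384 and 398 in WT, and 479, 321, 325 and 321 in SIRT5F101L. It fell by 0.66 in WT (edgeR adjusted p = 1.53e-05) and by 0.76 in SIRT5F101L (2.37e-06), and the highest plasmid library, SIRT5F101L replicate 1, stayed under the lowest Control library.

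Among the remaining effectors the rises were smaller. Samd9l, which restrains translation in infected cells, was at 76.7, 86.3, 82.2 and 82.7 CPM in Control, 155, 142, 143 and 151 in WT, and 145, 202, 172 and 161 in SIRT5F101L, with log2 fold changes of 0.85 ± 0.08 (edgeR adjusted p = 1.51e-08) and 1.05 ± 0.08 (5.59e-10). Adar, which edits adenosine in double-stranded RNA, was at 31.9, 31.2, 30 and 33.3 CPM in Control, 57, 46.9, 50.8 and 43.9 in WT, and 45.7, 56.7, 66.6 and 62 in SIRT5F101L, and rose by 0.65 in WT (edgeR adjusted p = 1.63e-05) and 0.87 in SIRT5F101L (3.41e-07). For both genes all plasmid libraries lay above all Control libraries. Of the Adar exon sequence, 16.8% overlaps Chrnb2, and the strand setting of the counting is not given in the sources used here. Mx2, a GTPase that blocks incoming virus, was at 20.9, 19.8, 19.9 and 21.5 CPM in Control, 26.2, 23.7, 28 and 26.7 in WT, and 31.1, 31.1, 29.6 and 28.9 in SIRT5F101L, and rose by 0.35 (edgeR adjusted p = 0.000599) and 0.56 (2.92e-06), with 34.0% of its transcript near-identical to Mx1. Eif2ak2, the kinase PKR that stops translation on double-stranded RNA, was at 108, 106, 110.2 and 110.2 CPM in Control, 124, 114, 113 and 112 in WT, and 117, 131, 128 and 134 in SIRT5F101L. Its log2 fold change was 0.09 in WT (edgeR adjusted p = 0.188), and it rose by 0.23 in SIRT5F101L (0.00189), although its lowest WT library exceeded the highest Control library. Mx1 was near 1 CPM in every group, with means of 0.997 ± 0.418 in Control, 0.8 ± 0.184 in WT and 1.26 ± 0.319 in SIRT5F101L (SD, n = 4), and was not called (edgeR adjusted p = 0.468 and 0.395).

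**Figure D3:**
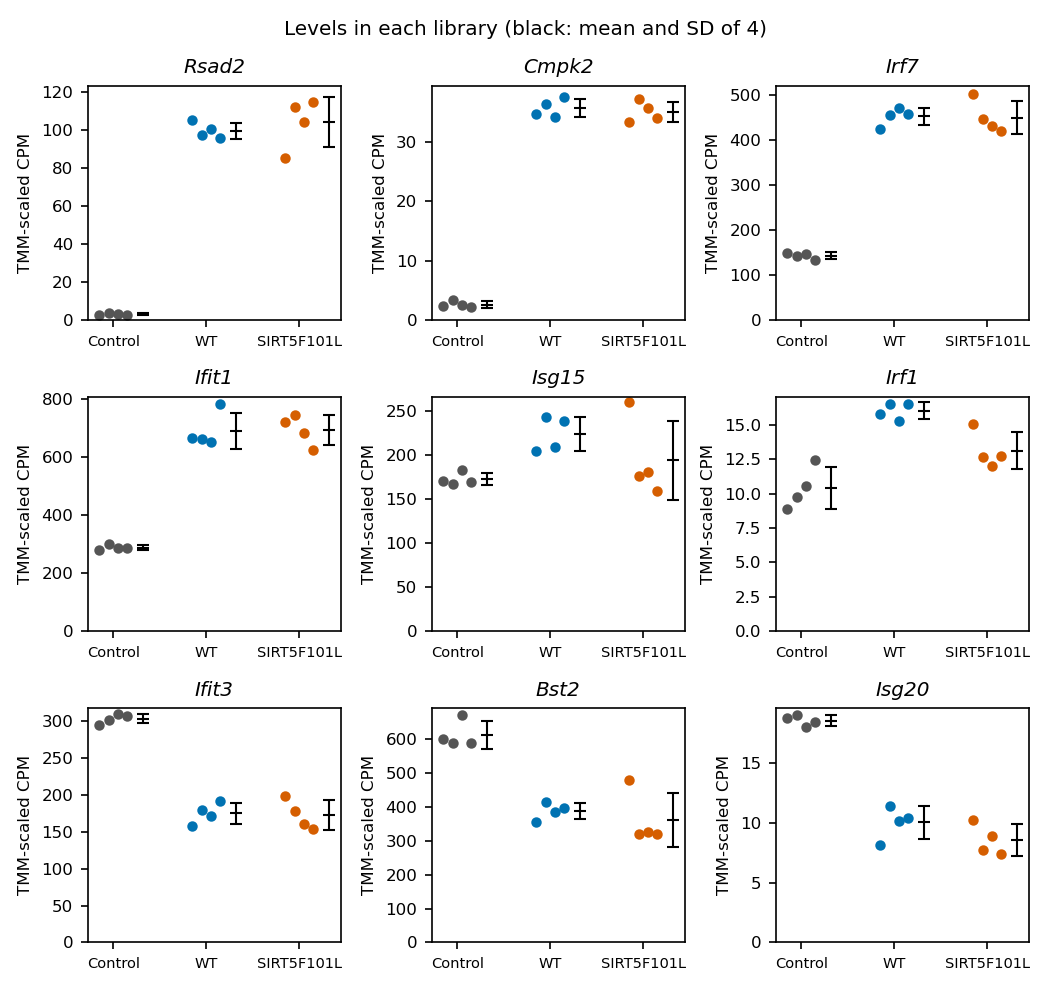
Points give TMM-scaled CPM (vertical axes from 0, each gene with its own scale) of 9 genes in the 4 libraries of each group, and black bars the mean and SD. Rsad2, Cmpk2, Irf7 and Ifit1 are higher and Ifit3, Bst2 and Isg20 lower in all 8 plasmid libraries than in any Control library, while SIRT5F101L replicate 1, the first orange point, is the highest of its group for Irf7, Isg15, Irf1, Ifit3, Bst2 and Isg20.

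Isg15, the enzyme that removes it and the enzymes that attach ISG15, ubiquitin or ADP-ribose to proteins moved in 1 direction where they were called: all 8 genes rose in WT, and 6 of 8 rose in SIRT5F101L with none falling, the other two being Isg15 and Usp18. Parp14, an ADP-ribosyltransferase, was at 20.1, 18.5, 19 and 21.4 CPM in Control, 51.8, 46.4, 48.6 and 48.3 in WT, and 47.7, 58.9, 57.2 and 55.9 in SIRT5F101L, and its log2 fold change was 1.31 ± 0.08 in WT (edgeR adjusted p = 1.96e-11) and 1.48 ± 0.08 in SIRT5F101L (2.48e-12). Trim30a, a TRIM-family protein that dampens inflammatory signalling, was at 17.8, 16.2, 17.5 and 18.6 CPM in Control, 42.6, 38.5, 38.2 and 35.9 in WT, and 41.5, 46.4, 45 and 48.5 in SIRT5F101L, and its change was 1.15 ± 0.08 (edgeR adjusted p = 1.55e-10) and 1.37 ± 0.08 (7.92e-12). Both genes were separated from Control in every plasmid library. The ligases Herc6, which attaches ISG15 in mice (0.96 and 1.25), Trim25, which modifies RIG-I (0.91 and 0.91), and Dtx3l (0.46 and 0.62), the last a partner of Parp9 (0.42 and 0.56), rose in both comparisons. Isg15, the ubiquitin-like protein itself, was at 171, 168, 183 and 169.9 CPM in Control, 206, 243, 209.9 and 239.6 in WT, and 261, 176, 181 and 159 in SIRT5F101L. WT libraries were all above Control, a rise of 0.38 (edgeR adjusted p = 0.00601), while SIRT5F101L overlapped Control, at 0.17 (0.193). Usp18, which removes ISG15 from proteins and blocks the interferon receptor, was at 13, 12.6, 15.2 and 12.3 CPM in Control, 15.3, 21.4, 16.6 and 18.2 in WT, and 18.9, 11.8, 13.4 and 14.2 in SIRT5F101L. It rose by 0.42 in WT (edgeR adjusted p = 0.0104; 0.051 without WT replicate 2), and its value in SIRT5F101L was 0.13 (0.405). In both genes SIRT5F101L replicate 1 was the highest of its group, and without it the change against Control was -0.01 for each (adjusted p = 0.941 for Isg15 and 0.932 for Usp18). Both were called higher in SIRT5F101L with the length offset (Isg15 0.28, edgeR adjusted p = 0.00099; Usp18 0.27, 0.0493). Isg15 was also called without SIRT5F101L replicate 4 (0.25, edgeR adjusted p = 0.0492) and without replicate 1 when the offset was added (0.18, 0.00425). A near-identical gene model, AC151275.1, covers 63.8% of the Isg15 transcript, so reads could be shared with it.

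Of the 3 cytosolic RNA sensors, 2 rose in each comparison. Ifih1, or MDA5, which detects long double-stranded RNA, was at 43.6, 43.3, 45.3 and 42.5 CPM in Control, 119.9, 108, 111 and 115 in WT, and 101, 136, 127 and 120.3 in SIRT5F101L, a log2 fold change of 1.38 ± 0.08 in WT (edgeR adjusted p = 4.93e-12) and 1.47 ± 0.08 in SIRT5F101L (1.69e-12). Ddx58, or RIG-I, which detects the triphosphate end of viral RNA, was at 144, 157, 143 and 155 CPM in Control, 182, 186, 189.9 and 189 in WT, and 189, 224, 207 and 218 in SIRT5F101L, and rose less, by 0.32 (edgeR adjusted p = 0.000151) and 0.48 (9.12e-07). For these 2 sensors no plasmid library reached down to Control. Dhx58, or LGP2, a regulator of the other sensors, was at 21.2, 21.3, 23.9 and 20.6 CPM in Control, 23, 23, 23.9 and 21.4 in WT, and 24.2, 22.8, 26.5 and 25.1 in SIRT5F101L, with overlap between all groups and values of 0.07 (edgeR adjusted p = 0.491) and 0.18 (0.0574). Dhx58 was called higher in SIRT5F101L by DESeq2 (0.19, adjusted p = 0.0442) and by edgeR with RLE scaling (0.19, 0.0486), with a length offset (0.27, 0.00579; 0.30, 0.00359 with SIRT5F101L replicate 1 left out too), without Control replicate 3 (0.23, 0.0298) and without SIRT5F101L replicate 2 (0.22, 0.039).

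Of the 4 transcription factors, 3 rose and 1 fell in each comparison, beside 28.7% and 28.1% of all genes in WT and 30% and 30.7% in SIRT5F101L. Irf7, the factor that amplifies interferon production, was at 151, 143, 148 and 135 CPM in Control, 426, 457, 472 and 458 in WT, and 502, 448, 432 and 421 in SIRT5F101L. It rose 3.15-fold in WT (edgeR adjusted p = 1.62e-14) and 3.13-fold in SIRT5F101L (1.71e-14), with every plasmid library above every Control library. Irf1, which can turn on many of these genes without the receptor, was at 8.89, 9.78, 10.5 and 12.4 CPM in Control, 15.8, 16.5, 15.3 and 16.5 in WT, and 15, 12.7, 12 and 12.8 in SIRT5F101L. WT stood above both other groups, with a rise of 0.62 over Control (edgeR adjusted p = 6.36e-05), and the rise in SIRT5F101L was 0.33 (0.0133; 0.0558 without Control replicate 1). Stat2, at 128, 134, 121 and 139 CPM in Control, 189, 201, 189 and 184 in WT, and 178, 179, 182 and 191 in SIRT5F101L, rose by 0.55 (edgeR adjusted p = 8.92e-08) and 0.48 (4.84e-07). Irf9, which brings STAT2 to DNA, was at 98.2, 99.5, 97.9 and 91.1 CPM in Control, 76.7, 79.2, 83.3 and 90.4 in WT, and 89.7, 75.4, 79.1 and 79 in SIRT5F101L, and fell by 0.23 (edgeR adjusted p = 0.00656) and by 0.26 (0.00253). All 4 Control libraries lay above the plasmid libraries, with WT replicate 4 the closest to them.

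Both nuclear body proteins rose. Pml, the scaffold of these bodies, was at 48.2, 57.4, 50 and 56.9 CPM in Control, 93.1, 91.9, 92.7 and 86.3 in WT, and 87.5, 96.2, 106 and 102 in SIRT5F101L, with changes of 0.78 ± 0.07 (edgeR adjusted p = 1.74e-08) and 0.88 ± 0.07 (2.26e-09). Sp100, another constituent, was at 5.81, 8.01, 7.08 and 6.39 CPM in Control, 7.75, 7.7, 9.3 and 10 in WT, and 10.1, 12.2, 10.3 and 11.1 in SIRT5F101L. Its WT libraries overlapped Control (0.35, edgeR adjusted p = 0.0292) and its SIRT5F101L libraries did not (0.67, 0.000159). The WT call on Sp100 was lost without Control replicate 1 or 4 or WT replicate 3 or 4 (adjusted p = 0.0724 to 0.109) and with upper-quartile scaling (0.0612).

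Of the 5 tested members outside these groups, 3 rose and 2 fell in each comparison (all genes: 28.7% and 28.1% in WT, 30% and 30.7% in SIRT5F101L). Ifi44, a GTP-binding antiviral protein, was at 136, 157, 147 and 139.8 CPM in Control, 255, 238, 261 and 271 in WT, and 275, 314, 305 and 289.8 in SIRT5F101L, with rises of 0.82 (edgeR adjusted p = 8.33e-10) and 1.03 (2.42e-11). Rtp4, a receptor-transporting protein, was at 71, 82.6, 79.4 and 78 CPM in Control, 102, 111, 109 and 114 in WT, and 111, 120.0, 106 and 105 in SIRT5F101L, and rose by 0.48 (edgeR adjusted p = 2.16e-06) and 0.51 (9.9e-07). Xaf1, a binding partner of the apoptosis inhibitor XIAP, was at 211, 198, 210.1 and 198 CPM in Control, 225, 229.9, 227 and 254 in WT, and 266, 281, 257 and 253 in SIRT5F101L, and rose by 0.20 (edgeR adjusted p = 0.00701) and 0.37 (1.61e-05). These 3 were separated from Control in all plasmid libraries. Lgals3bp, a secreted glycoprotein, was at 817, 742, 791 and 782 CPM in Control, 634, 623, 691 and 604 in WT, and 684, 694, 647 and 672 in SIRT5F101L, and fell by 0.30 (edgeR adjusted p = 0.000198) and by 0.22 (0.00306; 0.0528 with a length offset). Ifi35, which interacts with the interferon-induced protein NMI, was at 35.1, 33.6, 30.9 and 35.8 CPM in Control, 24.6, 30, 27.4 and 29.1 in WT, and 32.6, 21.4, 24.9 and 24.7 in SIRT5F101L, and fell by 0.29 (edgeR adjusted p = 0.0253) and by 0.38 (0.00357). Ifi35 overlapped Control through SIRT5F101L replicate 1, and its WT call was lost without Control replicate 1 or 4 or WT replicate 1 or 3 (adjusted p = 0.0546 to 0.0884) and with a length offset (0.0548).

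Levels were compared between genes as mean CPM per kilobase of the longest GENCODE M21 transcript. In Control, Bst2 was the most abundant member at 774, followed by Lgals3bp at 336, Isg15 at 229, Ifit3 at 174 and Ifit1 at 108. Rsad2 at 0.777 and Cmpk2 at 0.803 were near the bottom, above Mx1 at 0.294. In WT the order was Bst2 at 490.0, Isg15 at 297, Lgals3bp at 274, Ifit1 at 259.5 and Irf7 at 139.9, and Rsad2 stood at 23.8. Rsad2 and Cmpk2, the members with the largest fold changes, therefore started from low levels. Irf7, which rose 3.15-fold in WT, started from 44.4, and Ifit1, which rose 2.39-fold, from 108. Of the 5 most abundant members in Control, 3 fell, namely Bst2, Lgals3bp and Ifit3. The summed level of the members rested on a few abundant ones. Without Ifit1 and Irf7, which rose, it was 3368 to 3503 CPM in Control, 3596 to 3707 in WT and 3719 to 3893 in SIRT5F101L, and without Bst2 and Lgals3bp, which fell, 2416 to 2481, 3696 to 3944 and 3773 to 4069.9.

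Counts of members that rose or fell were also taken by transcript length. Of 12 tested members whose longest transcript is under 2500 bases, 5 rose and 6 fell in WT, and 3 rose and 6 fell in SIRT5F101L. Of all 4919 tested genes of that length, 19.0% rose and 31.8% fell in WT, and 17.7% and 38.9% in SIRT5F101L. Of 23 members at or over 2500 bases, 20 rose and 1, Irf9, fell in each comparison, against 34.1% and 26.4% of all 9161 such genes in WT and 36.7% and 26.5% in SIRT5F101L. Across the 35 members, log2 fold change correlated with log2 length at a Pearson r of 0.41 in WT and 0.49 in SIRT5F101L, and across 14080 genes with a length at 0.05 and 0.10. With each library's length trend taken out as an offset these were 0.38 and 0.43 over the members. Genes are not replicates, so the values are descriptive.

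Between the plasmids, no member passed the test. Of the 35, 0 were called in SIRT5F101L against WT by edgeR (0.0421% of all genes, 6 in number), and 0 were called by DESeq2, which called 39 genes in all. At an unadjusted p under 0.05 there were 12 members, 10 higher and 2 lower in SIRT5F101L, against 11.9% of all genes. Of all 14253 genes, 802 were higher and 899 lower at that threshold. The median log2 difference of the members was 0.08. The groups were apart for 4 members, Mx2, Sp100 and Ifi44 above and Irf1 below, against 1.99% and 2.03% of all genes. The differences of those 4 were 0.21 ± 0.07 for Mx2, 0.32 ± 0.13 for Sp100, 0.21 ± 0.06 for Ifi44 and -0.29 ± 0.11 for Irf1 (log2 ± SE; edgeR adjusted p = 0.363, 0.371, 0.33 and 0.364). For the genes highest against Control the difference between plasmids was 0.06 ± 0.08 for Rsad2, -0.03 ± 0.09 for Cmpk2 and -0.01 ± 0.06 for Irf7 (edgeR adjusted p = 0.762, 0.921 and 0.969).

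This comparison turned on SIRT5F101L replicate 1. Without it, 9 members were called higher and 4 lower in SIRT5F101L than in WT, against 6.66% and 8.58% of all 14528 genes tested then. Herc6 (0.45, edgeR adjusted p = 0.0124), Adar (0.32, 0.0057), Samd9l (0.27, 0.00452), Trim30a (0.26, 0.0179), Ifi44 (0.24, 0.00572), Parp14 (0.23, 0.0221), Ddx58 (0.21, 0.00868), Eif2ak2 (0.18, 0.0282) and Xaf1 (0.17, 0.0436) were the higher ones on the log2 scale. Usp18 (-0.44, edgeR adjusted p = 0.00965), Isg15 (-0.38, 0.00014), Irf1 (-0.36, 0.0249) and Bst2 (-0.27, 0.0032) were the lower ones. All 9 higher members have a longest transcript of at least 2500 bases and all 4 lower ones a shorter one, and over the 35 members r with log2 length was 0.57 with all libraries and 0.68 without that library (0.20 and 0.27 over all genes), and 0.37 and 0.47 with the length offset. Without that library, 9.7% of all genes of at least 2500 bases were called higher and 3.9% lower, and 1.2% and 17.4% of shorter ones. With the length offset added, a choice made after seeing the data, 5 were called higher (Herc6, Trim30a, Ddx58, Ifi44 and Xaf1) and 2 lower (Isg15 and Usp18), against 2.45% and 5.91% of all genes. The part of transcript length or RNA integrity in these differences was not tested further.

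**Figure D4:**
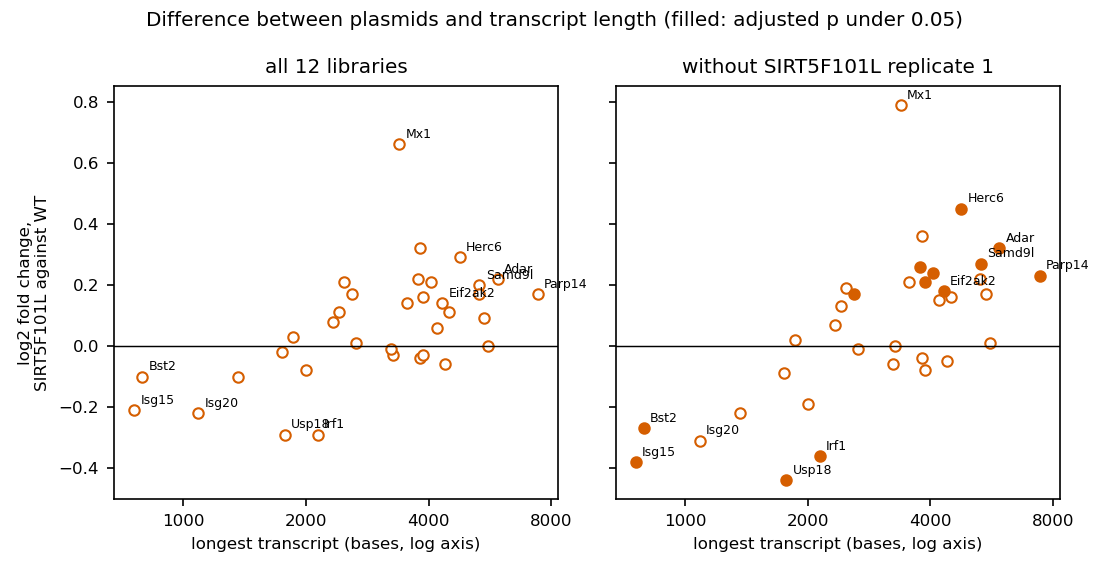
Each point is 1 of the 35 tested genes, placed by its longest transcript in bases (horizontal, log axis) and its log2 fold change in SIRT5F101L against WT (vertical), with all 12 libraries on the left and without SIRT5F101L replicate 1 on the right; filled points were called. No point is filled on the left; on the right 9 filled points lie above 0 at lengths of at least 2500 bases and 4 below 0 at shorter lengths.

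Interferon genes themselves were barely counted. Of 21 type I, II and III interferon genes, 17 were listed at 0 in all libraries and none passed the filter on low counts. Ifnb1, which encodes interferon beta, had 3 counts in Control replicate 3, 2 counts in SIRT5F101L replicate 1 and 0 in the other 10 libraries, where the upper limit a count of 0 allows is 3 counts, or 0.124 to 0.199 CPM before TMM scaling (counting error only).

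The receptor gene Ifnar1 was at 97.7, 87, 91.2 and 97.1 CPM in Control, 93.9, 88.4, 95.2 and 95.1 in WT, and 91, 101, 96.7 and 97.4 in SIRT5F101L, with log2 fold changes of -0.00 ± 0.06 and 0.05 ± 0.06, not called (edgeR adjusted p = 0.989 and 0.47). Ifnar2, at means of 5.18 ± 1.26 CPM in Control, 4.53 ± 0.804 in WT and 4.2 ± 1.23 in SIRT5F101L (SD, n = 4), was not called either (-0.19 and -0.28). Of 5 receptor genes tested, 1 rose and 2 fell in WT and 1 rose and 1 fell in SIRT5F101L (all genes: 28.7% and 28.1%, and 30% and 30.7%). They were Ifngr2 (0.20 and 0.16) and Ifngr1 (-0.30 and -0.30), the interferon gamma receptor chains, and in WT Ifnlr1 (-0.95), a chain of the interferon lambda receptor. The SIRT5F101L call on Ifngr2 (edgeR adjusted p = 0.0469) was lost without SIRT5F101L replicate 1 (0.11, 0.141) and with the length offset (0.14, 0.0832).

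Downstream of the receptor, 3 of 6 signalling genes rose and 1 fell in each comparison, where 28.7% and 28.1% of all genes in WT and 30% and 30.7% in SIRT5F101L did. The kinase Jak1 rose by 0.42 and 0.55 (edgeR adjusted p = 2.92e-06 and 5.7e-08), and Tyk2, under 1 CPM throughout, was not called (edgeR adjusted p = 0.185 and 0.203). Stat3, which carries interleukin-6 signals, rose by 0.43 and 0.42, and Irf8, a factor of myeloid cells, fell by 1.52 and 1.45, from 2.17 ± 0.219 CPM in Control to 0.758 ± 0.21 and 0.784 ± 0.199.

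Of 15 tested genes that induce interferon, 10 rose and 2 fell in each comparison, against 28.7% and 28.1% of all genes in WT and 30% and 30.7% in SIRT5F101L. Zbp1, a sensor of Z-form nucleic acid, was at 7.09, 8.26, 6.82 and 6.5 CPM in Control, 52.1, 58.9, 53.1 and 59.3 in WT, and 62.9, 54.6, 58.4 and 59.5 in SIRT5F101L, a log2 fold change of 2.96 ± 0.09 (edgeR adjusted p = 2.57e-16) and 3.04 ± 0.09 (1.7e-16), with no overlap with Control. Ifi204, a DNA-binding protein of the same response, rose by 1.19 and 1.28. The adaptor Ticam1 fell by 0.65 and 0.63, and Irf3, the factor that starts interferon beta transcription, fell by 0.45 and 0.62 (edgeR adjusted p = 0.00184 and 8.06e-05).

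Of 11 tested inhibitors of the signal, 3 rose and 4 fell in WT, shares near those of all genes (28.7% and 28.1%), and 3 rose and 7 fell in SIRT5F101L (30% and 30.7% of all genes). Socs1, which blocks the receptor's kinases, was at 11.8, 11.9, 12.7 and 9.94 CPM in Control, 9.08, 7.89, 7.8 and 7.56 in WT, and 8.61, 6.24, 7.34 and 8.11 in SIRT5F101L, and fell by 0.52 and 0.61 (edgeR adjusted p = 0.00117 and 0.000226), with the plasmid libraries all under Control. Socs3, which restrains interleukin-6 signalling, rose by 1.21 and 1.15, and the phosphatase Ptpn2 by 0.84 and 0.93. Ptpn6, a phosphatase of blood cells, fell by 1.46 and 1.40.

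**Figure D5:**
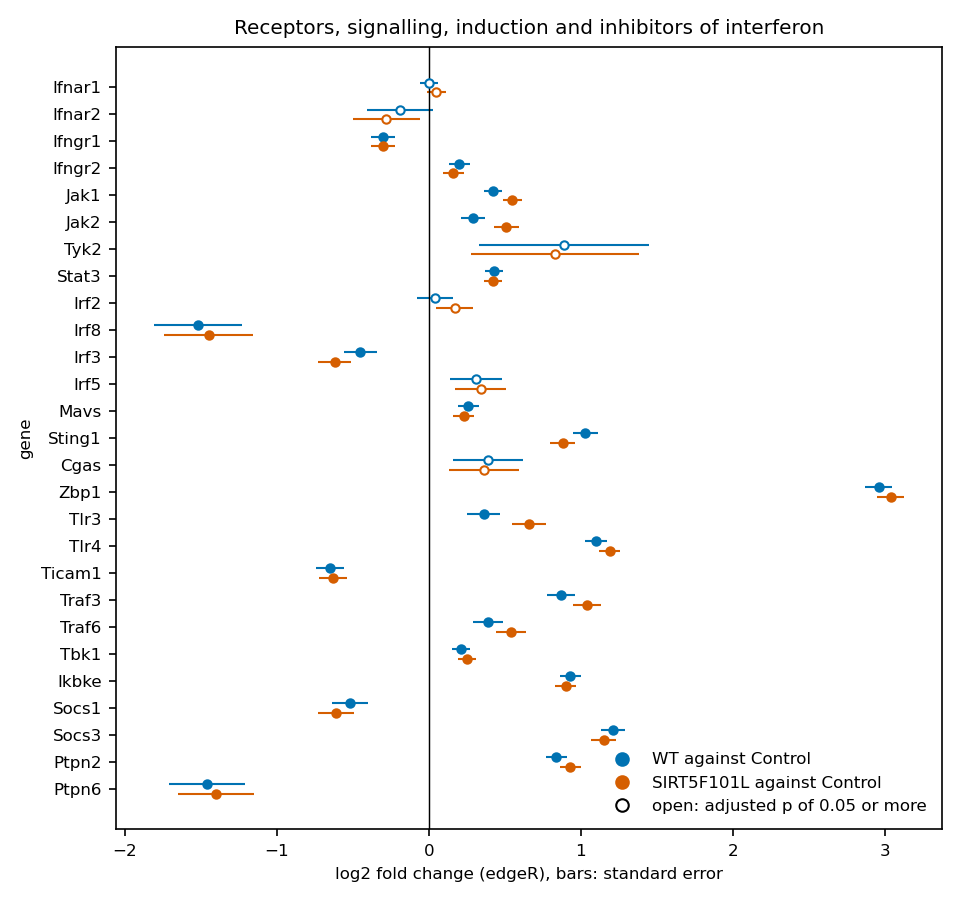
Points give the edgeR log2 fold change against Control (horizontal axis) of 27 receptor, signalling, induction and inhibitor genes in WT (blue) and SIRT5F101L (orange), bars the standard error, and open points were not called. Zbp1 lies at 2.96 and 3.04, Ifnar1 near 0, and Irf3, Socs1, Irf8 and Ptpn6 to the left of 0 in both.

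A pair of other interferon-stimulated families was followed beside the members. Of 9 tested oligoadenylate synthetase genes and relatives, whose products make the activator of RNase L, 6 rose and none fell in each comparison, against 28.7% and 28.1% of all genes in WT and 30% and 30.7% in SIRT5F101L. Oasl1, which binds Irf7 mRNA and limits its translation, was at 2.21, 2.64, 1.44 and 1.42 CPM in Control, 243, 244, 236 and 251 in WT, and 224, 205, 210.4 and 205 in SIRT5F101L, higher than any member by fold (log2 6.97 and 6.77), and Oas3 rose by 1.15 and 1.30. Of 8 tested guanylate-binding proteins and related GTPases, 5 rose and 1 fell in WT (28.7% and 28.1% of all genes), and 6 rose and none fell in SIRT5F101L (30% and 30.7%). Gbp5 rose by 2.55 and 2.71 and Gbp7 by 1.75 and 1.87. Iigp1 fell by 0.57 in WT (edgeR adjusted p = 9.36e-05), and its value in SIRT5F101L was -0.23 (0.0568; called without SIRT5F101L replicate 1, at -0.30, 0.0126).

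Leukocytes respond strongly to interferon, so their markers were followed beside the members. Of 19 macrophage and leukocyte markers, 12 were tested, of which 10 fell and 1, Cd14, rose in WT, and 9 fell and 1, Cd14, rose in SIRT5F101L. Their summed level was 195 to 234 CPM in Control, 142 to 159 in WT and 149 to 189 in SIRT5F101L, and Itgam, Cd3e, Ms4a1 and Nkg7 were listed at 0 throughout. Adgre1 was at 7.3 ± 1.37 CPM in Control, 1.78 ± 0.51 in WT and 1.93 ± 0.395 in SIRT5F101L, and Cd14, which chondrocytes and fibroblasts can also express, at 12.4 ± 1.02, 51.3 ± 2.96 and 59.8 ± 8.85 (SD, n = 4). Endothelial markers summed to 3.29 to 4.87 CPM with none of 4 tested called, and of 6 fibroblast markers 5 fell and 1 rose in each comparison. The fibroblast markers summed to 29646 to 35560 CPM in Control, 9659 to 11072 in WT and 9312 to 10700 in SIRT5F101L. In such bulk libraries, fewer cells of a type and less RNA per cell cannot be told apart, and the part of cell composition in the members' values was not tested.

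The response element was then set beside the fold changes. GAAA, 2 bases and GAAA was in the window of 12 of the 30 members with one (40%), against 3.99% of 27025 genes. In WT, 7 of 11 tested members with a match rose and 3 fell, with a median log2 fold change of 0.38, and of 17 without a match 13 rose and 4 fell, with a median of 0.62. In SIRT5F101L the counts were 7 and 3 with a match (median 0.48) and 12 and 4 without (0.67). The letters of Ifit1, which rose, and Ifit3, which fell, are shown above with their shared pair, and Cmpk2, with the second highest fold change, has none in this window. The shorter GAAANNGAA, which every match of the longer motif contains on either strand, was in 16 of 30 (53.3%) against 9.76% of genes. With it the order of the medians turned: in WT 0.65 with a match (11 of 15 rose and 3 fell) and 0.35 without (9 of 13 rose and 4 fell), and in SIRT5F101L 0.87 and 0.37. No match says only that these letters are not in this window.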

How the data were processed

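Poly(A)-selected RNA of primary chondrocytes was sequenced in 12 libraries as 150 bp paired-end reads, per the labels' protocols. The authors deposited whole-number counts per Ensembl gene ID, with no header. The submitters' processing notes name FastQC 0.11.9, HISAT2 2.2.1, HTSeq 2.0.2, DESeq2 1.38.3 and build GRCm39 (mm39), and the strand setting is not given in the sources used here. From these counts, edgeR 4.0.16 (R 4.3.3) was run on all 12 libraries with TMM scaling, filterByExpr and the quasi-likelihood F test (2-sided, 9 residual degrees of freedom, Benjamini-Hochberg adjustment over 14253 genes). An SE is the log2 fold change divided by the square root of F. Replicate numbers follow deposition order and pair nothing. Libraries of 15095357 to 24242139 counts make 3 counts worth 0.124 to 0.199 CPM before scaling, which covers counting error only. Of the IDs, 52029 had a symbol in a supplied name table.

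The members and the gene lists were chosen with earlier results of these data known. Values in every library are given for the 2 highest and the 1 lowest fold change in WT in each role group, all members of groups of 4 or fewer, members with an unadjusted p under 0.05 between plasmids, and those opposite in sign to the majority in both comparisons with Control. Of other pathway genes, Ifnb1, Ifnar1, Ifnar2, Jak1, Tyk2, Irf3 and Socs1 are named, with the 2 highest and 2 lowest called in WT per list, and 1 gene of the signalling list is not reported here and not counted in it. Ifit1 was named after its values were seen. The alternatives were RLE and upper-quartile scaling, other filters, a robust prior, fits of 8 libraries, DESeq2 1.42.0, a loess length trend (span 0.5) as offset, and leaving out each library. Transcript lengths, exon overlaps and copies of at least 95% identity over 100 bases (BLAST 2.17.0) came from GENCODE M21, and promoter windows from RefSeq on GRCm38.p6, both other builds than the authors'. The scripts were tested on simulated data.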

Additional observations from a re-analysis of the deposited data

Results flagged for a closer look

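In groups of 4 libraries, the highest or lowest value was compared with the rest of its group for the 35 tested members, 105 groups of values in all, of which 4 stood apart where chance gives about 5.25. Ifit1 in WT replicate 4 was at 780.0 CPM, with the other WT libraries at 652 to 665. Ifit3b in Control replicate 3 was at 78.7 CPM, with the other Control libraries at 63.9 to 66.2, and Bst2 in the same library was at 673 CPM, with the others at 588 to 601. Bst2 in SIRT5F101L replicate 1 was at 479 CPM, with the other SIRT5F101L libraries at 321 to 325; this is the library that stood apart on the second principal component.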

How the results depend on the processing

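Against Control, the counts of members that rose or fell stayed within 23 to 25 and 6 to 7 in WT and within 22 to 26 and 6 to 7 in SIRT5F101L over all alternatives, and only the median of the members moved, in WT, from 0.42 to 0.37 with upper-quartile scaling (which moved the median of all genes to -0.06) and over 0.39 to 0.49 when each library was left out. For SIRT5F101L against WT the 6 genes called in all became 354 with no filter beyond 1 count, 2 with a robust prior, 2 with the 8 libraries compared, 39 with DESeq2 and 18 with the length offset, and 0 to 2213 when each library was left out. There the members called higher ran from 0 to 9, those called lower from 0 to 4 and their median from 0.03 to 0.13, against 0, 0 and 0.08. Without SIRT5F101L replicate 1 and with the length offset, added after seeing the data, 1214 genes were called, 5 members higher and 2 lower. Over the 35 members and 3 comparisons, 2091 values of single members kept their direction and side of the threshold, 30 passed it, 20 lost it and 29 changed sign, none of the last called. Of these, 2 were Isg15 and Usp18 in SIRT5F101L against Control, which ran from -0.01 (without SIRT5F101L replicate 1) to 0.25 and 0.22 when each library was left out and from 0.12 to 0.28 and 0.09 to 0.27 under the other settings, both being called with the length offset. The other 27 were differences near 0 between the plasmids, which ran over -0.03 to 0.07 for Ifit1, -0.09 to 0.03 for Ifit3, -0.19 to 0.01 for Ifit3b, -0.03 to 0.02 for Trim25, -0.06 to 0.02 for Irf7, -0.08 to 0.02 for Irf9 and -0.01 to 0.05 for Rtp4 when each library was left out. Ifit3 was also at 0.03 with the length offset, and Trim25 at 0.00 to 0.01 with RLE or upper-quartile scaling, a filter on a mean of 1 CPM, the 8 libraries or DESeq2. The cause was not tested. With the shorter motif the share of members with a match was 53.3%, against 40%, and the median log2 fold change with a match minus that without turned from -0.24 to 0.30 in WT and from -0.19 to 0.50 in SIRT5F101L. No paired analysis was possible because the labels give no shared replicate numbers. Mx1, near 1 CPM, had a standard error of 0.36 in WT against Control, where the other tested members had 0.06 to 0.16, so that a difference in it is less detectable at this depth.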
